A study of Rattus norvegicus with 9 samples.

Results

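Hemidesmosome and laminin anchoring genes are 7 genes whose products hold the basal cells of an epithelium to the basement membrane: Itgb4, Itga6, Col17a1, Itga3, Itgb1, Lama3 and Lamb3. They were chosen by symbol, taking every probe set whose annotation gave 1 of these symbols and no other. That found 11 probe sets for the 7 genes, of 31042 probe sets and 14217 genes measured in rat tongue. Gene expression was measured on 9 Affymetrix arrays, 3 in each of 3 groups of male Sprague-Dawley rats. The IL-1Ra group received the carcinogen 4-nitroquinoline 1-oxide (4NQO) and also IL-1Ra, the antagonist protein that competes with interleukin-1 for its receptor. The 4NQO group received the carcinogen without IL-1Ra, and the normal group drank plain distilled water. 4NQO was given in the drinking water at 0.002% and damages DNA in the oral epithelium.

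The labels say that the 4NQO rats were killed between week 14 and week 22 once lesions could be seen, whereas the methods of the study describe killing at the end of week 22. The labels have 4NQO given for 22 weeks, and the methods for 14 weeks before the rats were divided into the IL-1Ra and 4NQO groups. In the methods, IL-1Ra was injected weekly into the submucosa of the middle part of the tongue from week 14, and the 4NQO rats received saline by the same route. The sources used here do not give the stage of the lesion in each sample. Each sample was a piece of tongue tissue, so epithelium, connective tissue, vessels, nerve and muscle were measured together. In such bulk tissue, fewer cells of a type and less RNA per cell cannot be told apart. The tissue label was borne out by its defining markers, since the keratins Krt4 and Krt13 of the tongue surface and the muscle actin Acta1 lay between 12.85 and 13.64 log2 on every array.

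A hemidesmosome is a rivet-like junction on the underside of a basal keratinocyte. Its core is integrin α6β4, made of the products of Itga6 and Itgb4, with the transmembrane collagen XVII, the product of Col17a1, beside it. Inside the cell plectin and the bullous pemphigoid antigen tie this core to keratin filaments, and outside the cell it binds laminin-332, whose α3 and β3 chains come from Lama3 and Lamb3. Integrin α3β1, the product of Itga3 and Itgb1, binds the same laminin but connects to actin in focal contacts. Loss of these proteins is known to cause blistering disease, and α6β4 is known for its part in the growth and invasion of squamous carcinoma cells.

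Stretches of DNA in front of an annotated start are shown because 3 of the genes differ in which short motifs they hold there. RefSeq promoters on the GRCr8 build were at hand for 5 of the 7 genes, Col17a1, Itga3, Itgb1, Lama3 and Lamb3. The 250 bases before an annotated start of each gene were searched on both strands for 4 motifs. These were the AP-1 motif TGANTCA, the TATA box TATAAA, the GC box GGGCGG and the E-box CACGTG. Each stretch is printed 5′ to 3′ on the gene's strand, with the bases that match a motif in capitals. The stretch of Lama3 lies on the plus strand at chr18:3952517-3952766, that of Col17a1 on the minus strand at chr1:256518858-256519107 and that of Itgb1 on the plus strand at chr19:73602027-73602276. Lama3 itself spans chr18:3797898-4033021, so its stretch lies inside the gene, before an internal start. Itga3 spans chr10:80486998-80522548 on the minus strand, and its stretch at chr10:80518902-80519151 is likewise inside the gene. The Lamb3 stretch, chr13:107362303-107362552, runs past the first base of the gene at 107362514.
Lama3: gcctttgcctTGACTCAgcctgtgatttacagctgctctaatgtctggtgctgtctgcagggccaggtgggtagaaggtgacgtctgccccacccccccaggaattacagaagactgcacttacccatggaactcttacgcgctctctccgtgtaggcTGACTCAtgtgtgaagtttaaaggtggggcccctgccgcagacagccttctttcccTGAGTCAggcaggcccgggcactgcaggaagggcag
Col17a1: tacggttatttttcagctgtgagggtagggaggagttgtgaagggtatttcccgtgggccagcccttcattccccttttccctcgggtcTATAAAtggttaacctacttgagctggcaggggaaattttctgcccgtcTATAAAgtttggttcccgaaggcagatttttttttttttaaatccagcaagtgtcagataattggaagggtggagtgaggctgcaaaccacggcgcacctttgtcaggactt
Itgb1: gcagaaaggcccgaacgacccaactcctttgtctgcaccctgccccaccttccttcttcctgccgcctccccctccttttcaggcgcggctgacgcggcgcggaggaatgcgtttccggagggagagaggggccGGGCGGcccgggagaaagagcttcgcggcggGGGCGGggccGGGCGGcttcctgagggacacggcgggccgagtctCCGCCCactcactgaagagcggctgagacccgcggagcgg
Lama3 held 3 matches to the AP-1 motif, at bases -240 to -234, -92 to -86 and -36 to -30 counted back from this internal start. At least 1 match was found in 6.34% of 33469 promoters of the same length, and 3 or more in 0.0149%, which was 5 promoters. Col17a1 held 2 TATA boxes, at -161 to -156 and -112 to -107, as did 2.26% of promoters at 2 or more. In Itgb1 there were 4 GC boxes, at -116 to -111, -85 to -80, -75 to -70 and -40 to -35, a number reached or passed by 3.67% of promoters. Itga3 held 2 GC boxes, reached by 14.8%, and Lamb3 held none of the 4 motifs. No 2 matches overlapped. The bases were 71.2% G or C in Itgb1 and 64.0% in Itga3, 58.4% in Lamb3, 58.0% in Lama3 and 47.2% in Col17a1, with a median of 51.2% over all promoters. These are matches of letters and do not show that a factor binds there.

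**Figure D1:**
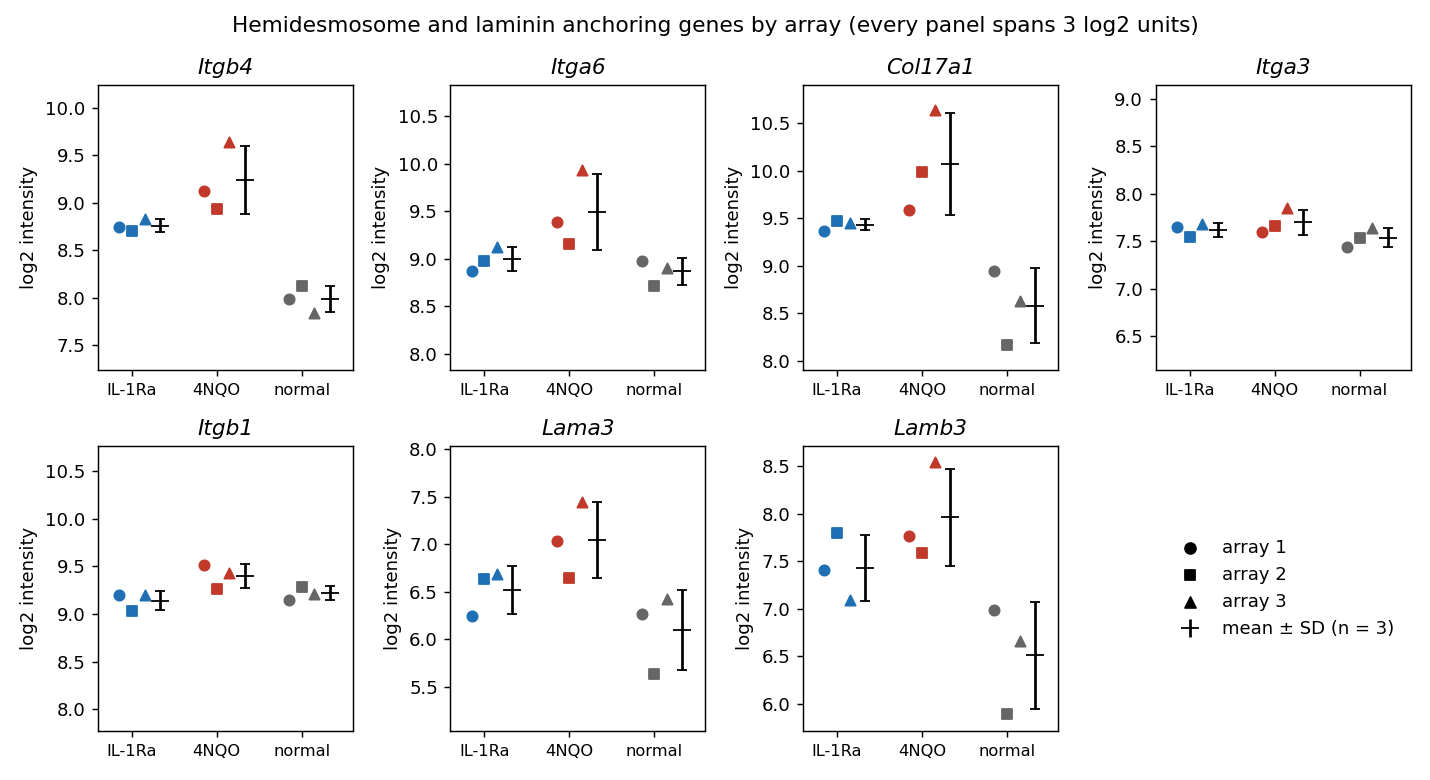
Each panel plots the log2 intensity of 1 gene (vertical axis, 3 log2 units in every panel) on each array of the IL-1Ra, 4NQO and normal groups, with the mean and SD to the right of the points. In Itgb4, Col17a1 and Lamb3 all IL-1Ra and all 4NQO arrays lie above all normal arrays, and in Itga3 the 3 groups overlap.

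To see which of these genes changed under the carcinogen, 4NQO tongue was set against normal tongue. Of the 7 genes, 5 rose: Itgb4, Itga6, Col17a1, Lama3 and Lamb3. They were between 1.54-fold and 2.8-fold higher in 4NQO tongue by limma, with p adjusted over all 31042 probe sets. None fell, and Itga3 and Itgb1 were not called. After quantile normalization or cyclic loess, Itgb4, Col17a1 and Lamb3 were the 3 called. In the same comparison 9.41% of all probe sets were called higher and 5.44% lower. All 4NQO arrays lay above all normal arrays in the same 5 genes, as they did in 20.6% of probe sets. The median difference of the 7 genes was 0.93 log2, against 0.08 log2 for the median over all genes. Across the 3 groups, the moderated F test of limma called Itgb4 (adjusted p = 0.00911), Col17a1 (adjusted p = 0.0197) and Lamb3 (adjusted p = 0.0388), where 12.0% of all probe sets were called.

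Itgb4 encodes the β4 subunit, which has a long cytoplasmic tail that binds plectin and pairs only with α6. It measured 8.75, 8.70 and 8.83 log2 on IL-1Ra arrays 1, 2 and 3, 9.12, 8.94 and 9.64 on 4NQO arrays and 7.99, 8.13 and 7.84 on normal arrays. The 3 groups did not overlap: the 4NQO arrays were highest, the IL-1Ra arrays lay between and the normal arrays were lowest. The means were 9.24 ± 0.36 log2 in 4NQO and 7.99 ± 0.14 log2 in normal tongue (SD, n = 3 each). The difference of 1.25 ± 0.17 log2 (SE) was a 2.38-fold rise (limma adjusted p = 0.00475). With any 1 array left out it ran from 1.05 to 1.39 log2 and was called each time.

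Itga6 encodes the α6 subunit, the partner of β4 in hemidesmosomes, which also pairs with β1 in other cells. Its brightest probe set, 1383240_at, measured 8.87, 8.98 and 9.13 log2 on IL-1Ra arrays, 9.39, 9.16 and 9.94 on 4NQO arrays and 8.98, 8.72 and 8.91 on normal arrays. The 4NQO arrays lay above both other groups, while the IL-1Ra and normal arrays overlapped. The rise in 4NQO was 0.63 ± 0.18 log2 (SE), or 1.54-fold (limma adjusted p = 0.0481). This call was lost when any array other than 4NQO array 2 was left out, with differences of 0.40 to 0.68 log2 and adjusted p of 0.0568 to 0.146. Without 4NQO array 3, the array with the highest level, the difference was 0.40 log2 (limma adjusted p = 0.0763). The call was also lost in all 3 forms of the methods' t-test and in 5 of 9 other limma settings, among them quantile normalization (0.49 log2, limma adjusted p = 0.115) and cyclic loess (0.45 log2, limma adjusted p = 0.162).

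Itga6 had 3 other probe sets, and they did not move alike. Probe set 1393558_at measured 4.66, 4.60 and 4.83 log2 on IL-1Ra arrays, 5.39, 4.78 and 5.87 on 4NQO arrays and 3.66, 4.05 and 4.00 on normal arrays. It was 2.72-fold higher in 4NQO than in normal tongue (1.44 log2, limma adjusted p = 0.00782). Probe set 1371186_at differed by 0.21 log2 between 4NQO and normal (limma adjusted p = 0.415), and 1371185_at by -0.32 log2 (limma adjusted p = 0.174), so that the last 2 were not called. The dimmest, 1371185_at, averaged 3.56 log2 in IL-1Ra, 3.55 in 4NQO and 3.87 in normal tongue, where the lower quartile of all probe sets ran from 3.60 to 3.78 log2 over the arrays. The sources used here do not say which transcripts of the gene each probe set detects.

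Col17a1 encodes collagen XVII, a membrane collagen that spans from the hemidesmosome plaque into the basement membrane. It measured 9.36, 9.47 and 9.45 log2 on IL-1Ra arrays, 9.58, 9.98 and 10.64 on 4NQO arrays and 8.94, 8.16 and 8.63 on normal arrays. As for Itgb4, the 3 groups were apart from each other, with IL-1Ra in the middle. The 4NQO mean of 10.07 ± 0.54 log2 stood against 8.58 ± 0.39 log2 in normal tongue (SD, n = 3 each). The rise was 1.49 ± 0.26 log2 (SE), or 2.8-fold (limma adjusted p = 0.0093). It stayed called with any 1 array left out, at 1.20 to 1.73 log2.

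Lama3 encodes the α3 chain of laminin-332, the part that integrins bind. Its levels were 6.24, 6.63 and 6.69 log2 on IL-1Ra arrays, 7.03, 6.64 and 7.44 on 4NQO arrays and 6.26, 5.63 and 6.42 on normal arrays. The IL-1Ra arrays overlapped with those of both other groups, and normal array 2 was lowest of the 9. The rise in 4NQO was 0.93 ± 0.25 log2 (SE), or 1.91-fold (limma adjusted p = 0.0335). It was no longer called without 4NQO array 1 (0.94 log2, limma adjusted p = 0.0654), 4NQO array 3 (0.73 log2, limma adjusted p = 0.0772), normal array 1 (1.01 log2, limma adjusted p = 0.0666), normal array 2 (0.70 log2, limma adjusted p = 0.105) or normal array 3 (1.09 log2, limma adjusted p = 0.0615). Without normal array 1 or 3 the difference itself was larger, and the number of probe sets called on the whole array was 1873 or 851, against 4610 with all arrays. It was likewise lost after quantile normalization (0.78 log2, limma adjusted p = 0.0712), after cyclic loess (0.75 log2, limma adjusted p = 0.0837) and with the 6 arrays of these 2 groups alone (limma adjusted p = 0.059).

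Lamb3 encodes the β3 chain, found in laminin-332 and known for its mutation in junctional epidermolysis bullosa. It measured 7.41, 7.80 and 7.09 log2 on IL-1Ra arrays, 7.76, 7.59 and 8.54 on 4NQO arrays and 6.99, 5.89 and 6.66 on normal arrays. The IL-1Ra and 4NQO arrays overlapped with each other and both lay above normal. The 4NQO mean was 7.96 ± 0.51 log2 and the normal mean 6.51 ± 0.56 log2 (SD, n = 3 each), a difference of 1.45 ± 0.32 log2 (SE), or 2.73-fold (limma adjusted p = 0.0188). The call was lost without normal array 2 (1.14 log2, limma adjusted p = 0.0602) and without normal array 3 (1.52 log2, limma adjusted p = 0.0619).

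**Figure D2:**
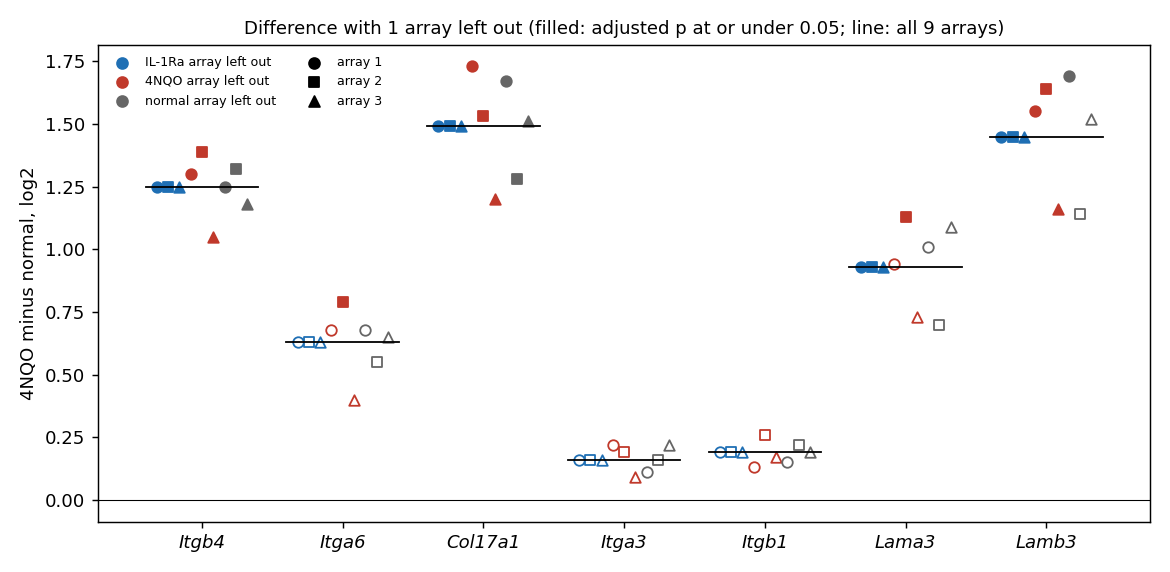
The vertical axis gives the log2 difference of 4NQO minus normal for each gene with 1 of the 9 arrays left out in turn. Colour marks the group of that array, shape its number, and filled points passed an adjusted p of 0.05. Itgb4 and Col17a1 are filled throughout, and Itga6 is filled once.

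Itga3 and Itgb1, the subunits of the integrin that sits outside hemidesmosomes, differed by less. Itga3 measured 7.65, 7.55 and 7.68 log2 on IL-1Ra arrays, 7.60, 7.66 and 7.85 on 4NQO arrays and 7.44, 7.54 and 7.64 on normal arrays, and all 3 groups overlapped. Its difference between 4NQO and normal was 0.16 log2, with a 95% interval from -0.08 to 0.41 (limma adjusted p = 0.324). After quantile normalization or cyclic loess its sign turned, at -0.02 and -0.06 log2. Itgb1 is shared by many integrins in most cell types. It measured 9.20, 9.03 and 9.20 log2 on IL-1Ra arrays, 9.51, 9.26 and 9.43 on 4NQO arrays and 9.15, 9.28 and 9.21 on normal arrays. Its difference between 4NQO and normal was 0.19 log2, from -0.06 to 0.43 (limma adjusted p = 0.259), and that of its other probe set, 1387346_at, 0.27 log2, from -0.01 to 0.54 (limma adjusted p = 0.165). These intervals leave out a 2-fold change, and they do not show that the 2 genes stayed the same.

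The 2 β subunits, and the 2 α subunits, were also compared on each array directly. Itgb4 minus Itgb1 was -0.16 ± 0.33 log2 in 4NQO and -1.23 ± 0.12 in normal tongue (SD, n = 3 each), a shift of 1.06 log2 (exact two-sided permutation test, p = 0.1, the smallest that 3 arrays against 3 allow). The same measure was -0.38 ± 0.05 log2 in IL-1Ra, 0.84 above normal (exact permutation p = 0.1) and 0.22 below 4NQO (exact permutation p = 0.3). Itga6 minus Itga3 was 1.37 ± 0.13 log2 in IL-1Ra, 1.79 ± 0.29 in 4NQO and 1.33 ± 0.19 in normal tongue. Its shift was 0.46 log2 for 4NQO against normal (exact permutation p = 0.2) and -0.42 for IL-1Ra against 4NQO (exact permutation p = 0.1). This design cannot pass 0.05 in such a test.

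To see whether these genes differed once the IL-1 receptor was blocked, IL-1Ra tongue was set against 4NQO tongue. All 7 genes measured lower on average in IL-1Ra tongue, by 0.08 log2 in Itga3 to 0.64 log2 in Col17a1, with a median of -0.50 log2 against -0.04 over all genes. After cyclic loess the Itga3 difference was 0.00 log2. Limma called 0 of the 7, while it called 1.59% of all probe sets higher and 0.731% lower. At an unadjusted p of 0.05, limma took 4 of the 7 as lower, Itgb4, Itga6, Col17a1 and Itgb1, and 10.8% of all probe sets. The methods' t-test took 0 of the 7 at that threshold, where it took 6.74% of all probe sets as lower and 5.30% as higher. A count of 0 of 7 is near those shares. In the same 4 genes every IL-1Ra array lay below every 4NQO array, as in 11.7% of probe sets.

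Itgb4 averaged 8.76 ± 0.07 log2 in IL-1Ra and 9.24 ± 0.36 in 4NQO (SD, n = 3 each), a difference of -0.48 log2 with a 95% interval from -0.85 to -0.10 (limma adjusted p = 0.165). Itga6 differed by -0.50 log2, from -0.91 to -0.09 (limma adjusted p = 0.181), and Itgb1 by -0.26 log2, from -0.50 to -0.02 (limma adjusted p = 0.236). Col17a1 averaged 9.43 ± 0.06 log2 in IL-1Ra and 10.07 ± 0.54 in 4NQO, a difference of -0.64 log2, from -1.21 to -0.06 (limma adjusted p = 0.22). Both laminin chains had intervals that held 0. Lama3 differed by -0.52 log2, from -1.07 to 0.03 (limma adjusted p = 0.287), and Lamb3 by -0.53 log2, from -1.24 to 0.18 (limma adjusted p = 0.405). Without 4NQO array 3, the highest of its group in 6 of the 7 genes, the differences were -0.27 log2 in Itgb4, -0.28 in Itga6, -0.35 in Col17a1, -0.32 in Lama3 and -0.24 in Lamb3. Itgb1, highest on 4NQO array 1, differed by -0.24 log2 without array 3. The IL-1Ra arrays lay close together, with a median SD over the 7 genes of 0.10 log2, against 0.40 in 4NQO and 0.14 in normal. Over all probe sets the medians were 0.15, 0.19 and 0.11 log2 in that order of groups.

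**Figure D3:**
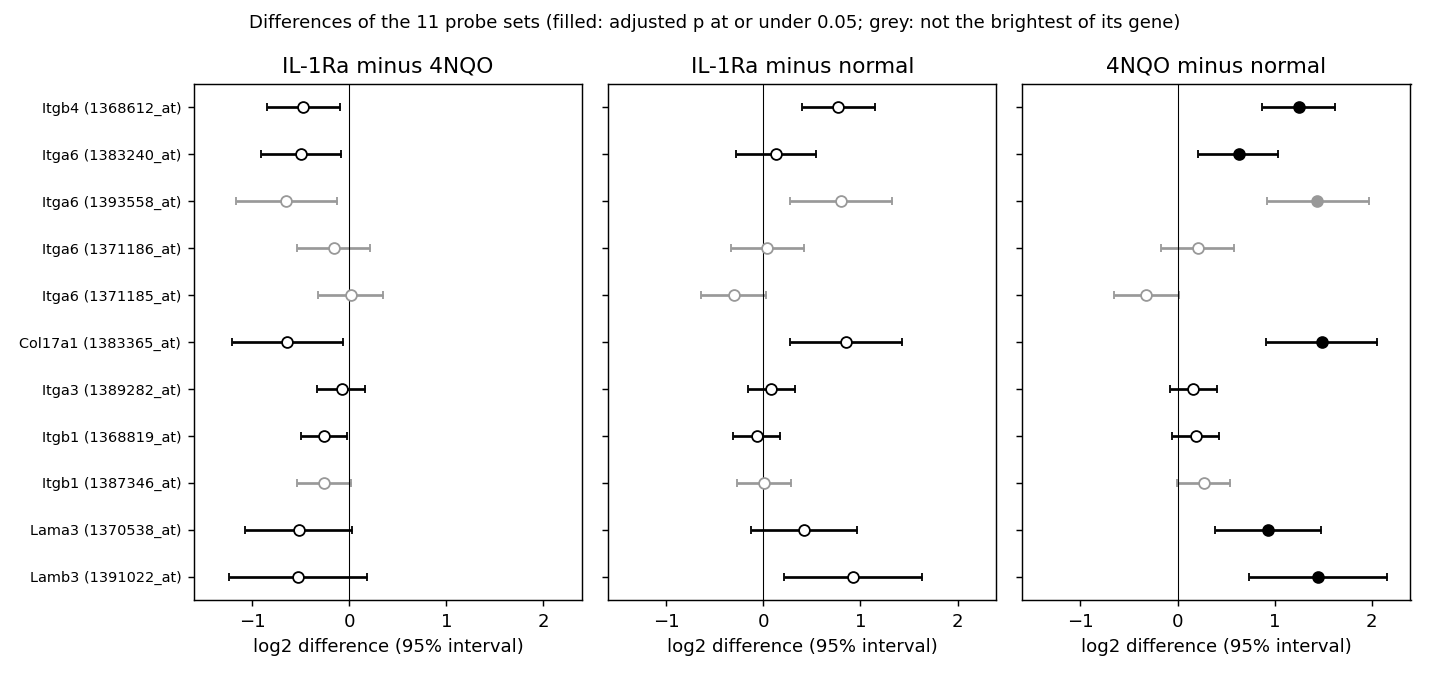
The log2 difference (horizontal axis) and its 95% interval are plotted for all 11 probe sets in the 3 comparisons. Filled points passed an adjusted p of 0.05 and grey marks the probe sets that were not the brightest of their gene. Calls appear only for 4NQO minus normal, where 6 probe sets are filled.

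IL-1Ra tongue was also set against normal tongue, which had seen no carcinogen. Itgb4, Col17a1 and Lamb3 measured higher, and every IL-1Ra array lay above every normal array in these 3 genes and in 19.4% of probe sets. Limma called 0 of the 7 genes, against 1.33% of all probe sets called higher and 0.541% lower. At an unadjusted p of 0.05 limma took the same 3 genes as higher, with 12.7% of all probe sets. The methods' t-test took 2 of the 7 as higher, with 14.4% of all probe sets. Itgb4 averaged 8.76 ± 0.07 log2 in IL-1Ra and 7.99 ± 0.14 in normal tongue (SD, n = 3 each). Its difference of 0.77 log2, from 0.40 to 1.15, lay just past the threshold (1.71-fold, limma adjusted p = 0.0519). Limma called it in 6 of 9 other settings that kept all arrays of both groups, with adjusted p from 0.00933 to 0.0922. It was also called without 4NQO array 2 (limma adjusted p = 0.0312) and without 4NQO array 3 (limma adjusted p = 0.0154), which enter this difference only through the shared estimate of spread.

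Col17a1 differed by 0.85 log2 between IL-1Ra and normal, from 0.27 to 1.43 (1.8-fold, limma adjusted p = 0.0994), and limma called it only with array weights, with the 6 arrays alone or without 4NQO array 3 (0.85 log2, limma adjusted p = 0.0383). Lamb3 differed by 0.92 log2, from 0.21 to 1.63 (1.89-fold, limma adjusted p = 0.131). Lama3 differed by 0.42 log2, from -0.13 to 0.96 (limma adjusted p = 0.341), and Itga6 by 0.13, from -0.28 to 0.54 (limma adjusted p = 0.718). The integrin pair outside hemidesmosomes lay near normal, with Itga3 at 0.08 log2, from -0.16 to 0.33 (-0.06 after quantile normalization), and Itgb1 at -0.07, from -0.31 to 0.17. The order of the group means was 4NQO, IL-1Ra, normal in 6 of the 7 genes. In Itgb1 the order was 4NQO, normal, IL-1Ra, and its normal and IL-1Ra means did not differ beyond their spread. The 3 comparisons share arrays, so their differences are not independent of each other.

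A list of hemidesmosome partners held 8 measured genes, not all of which encode parts of the junction itself. These were the plaque proteins Dst and Plec, the tetraspanin Cd151, the anchoring fibril collagen Col7a1 and the basal keratins Krt5 and Krt14. The list also held the adaptor Erbin and the tensin Tns4. For 4NQO against normal the estimates of all 8 were above 0 (7 of 8 after quantile normalization or cyclic loess). Their median was 0.40 log2, and limma called 0 of the 8. At an unadjusted p of 0.05 limma took 5 as higher and the methods' t-test 1, where limma took 18.7% and the methods' t-test 14.7% of all probe sets as higher. The lowest adjusted p were those of Tns4 (1.19 log2, limma adjusted p = 0.0547), Cd151 (0.28 log2, adjusted p = 0.0603), Krt5 (0.81 log2, adjusted p = 0.0635) and Dst (0.35 log2, adjusted p = 0.0913). Plec, the direct partner of the β4 tail, measured 9.96, 9.87 and 9.86 log2 on IL-1Ra arrays, 10.24, 10.46 and 10.27 on 4NQO arrays and 10.05, 10.20 and 9.94 on normal arrays. Every IL-1Ra array lay below every 4NQO array in 3 of the 8 genes, against 11.7% of all probe sets. These were Plec (-0.43 log2, limma adjusted p = 0.0761), Dst (-0.48 log2, limma adjusted p = 0.0813) and Cd151 (-0.07 log2, limma adjusted p = 0.714), none of which passed the threshold.

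Other basement membrane genes did not follow the laminin-332 chains as a group. Limma called 3 of 23 higher and 7 lower in 4NQO than in normal tongue, against 9.41% and 5.44% of all probe sets. The median of the 23 was -0.38 log2. The higher ones were Lama5, the α5 laminin chain of many epithelial basement membranes (0.84 log2, limma adjusted p = 0.0233), the proteoglycan Agrn (0.81 log2, limma adjusted p = 0.0161) and the collagen Col18a1 (0.60 log2, limma adjusted p = 0.041). The lower ones were the type IV collagen chains Col4a5 (-0.86 log2, limma adjusted p = 0.0148) and Col4a6 (-0.80 log2, limma adjusted p = 0.022), the linker nidogen Nid1 (-1.16 log2, limma adjusted p = 0.0216) and 4 laminin chains. These were Lama1 at -0.69 log2, Lama2 at -0.57, Lamc1 at -0.51 and Lamc3 at -0.48. The laminin chains thus went both ways in 4NQO tongue, with Lama3, Lamb3 and Lama5 higher and Lama1, Lama2, Lamc1 and Lamc3 lower. After quantile normalization or cyclic loess the same 7 basement membrane genes were called lower, but Lama5, Col18a1 and Lama3 were no longer called higher, and Agrn was called with quantile normalization alone. Lama5 measured 6.87, 6.97 and 6.81 log2 on IL-1Ra arrays, 7.05, 7.15 and 7.89 on 4NQO arrays and 6.60, 6.36 and 6.61 on normal arrays, 3 groups that did not overlap. Nid1 measured 9.52, 8.94 and 9.58 log2 on IL-1Ra arrays, 9.48, 8.59 and 8.47 on 4NQO arrays and 9.80, 10.23 and 10.00 on normal arrays.

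**Figure D4:**
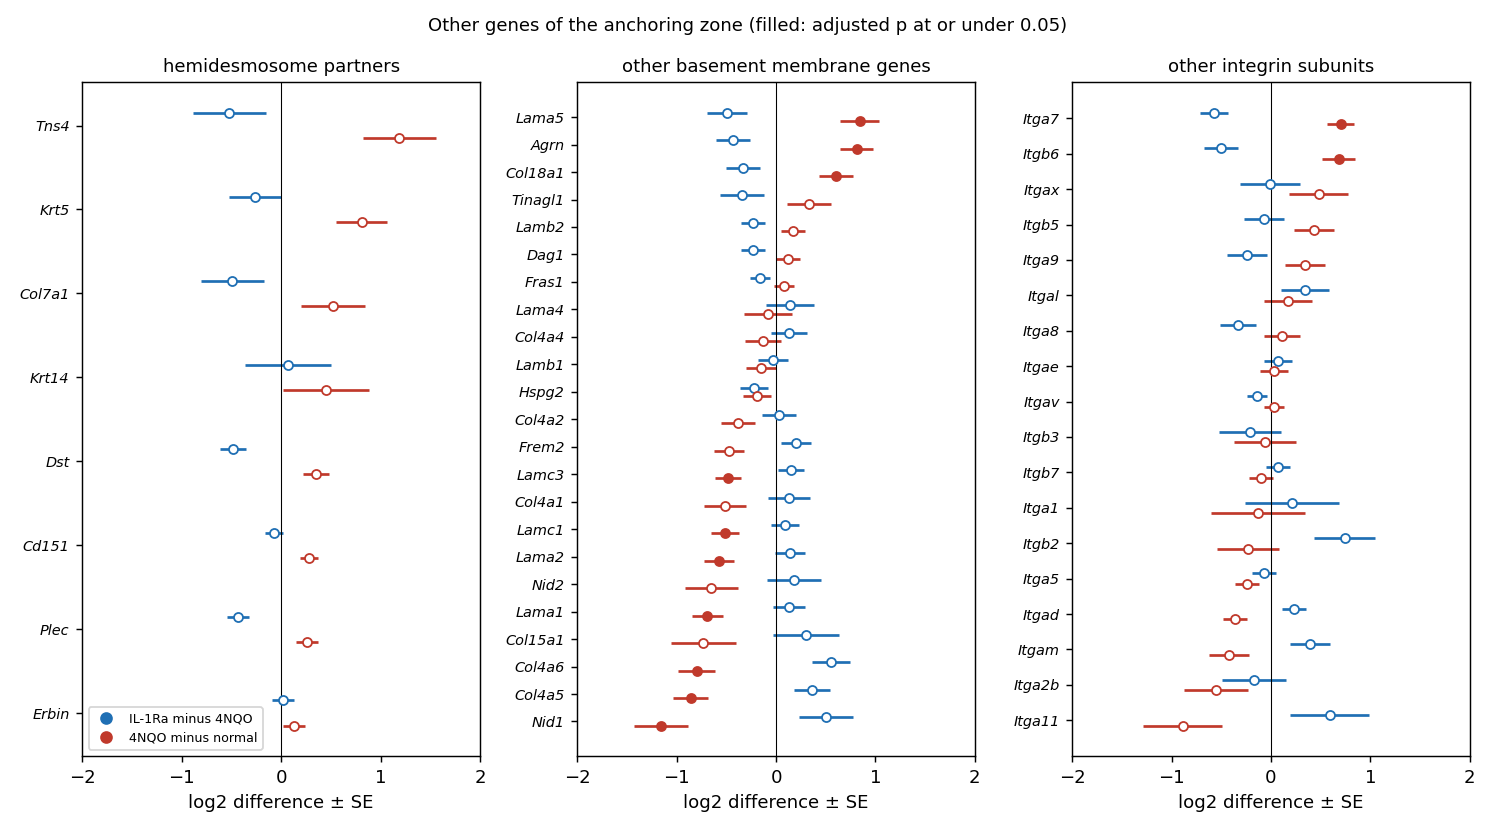
Each point is the log2 difference of 1 gene, with its SE, for IL-1Ra minus 4NQO (blue, upper of each pair) and 4NQO minus normal (red), sorted by the second. Filled points passed an adjusted p of 0.05, which 3 basement membrane genes did as higher and 7 as lower, and 2 integrins as higher, all for 4NQO minus normal.

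Among 18 other integrin subunits, limma called 2 higher (11.1%, near the 9.41% of all probe sets) and 0 lower in 4NQO against normal, with a median of -0.02 log2. At an unadjusted p of 0.05 it took 2 as lower, as did the methods' t-test, where limma took 14.2% and the methods' t-test 11.8% of all probe sets. Itga7, a laminin-binding α subunit of skeletal muscle, was 1.62-fold higher (0.70 log2, limma adjusted p = 0.0129). Itgb6, an epithelial subunit known from wounds and carcinomas, was 1.61-fold higher (0.68 log2, limma adjusted p = 0.028), a call lost after quantile normalization or cyclic loess. Focal adhesion genes, whose products link integrins such as α3β1 to actin, had 9 of 20 called higher and 0 lower, with a median of 0.30 log2. After quantile normalization 2 were called and after cyclic loess 1. The 4 with the lowest adjusted p were Tns2 (0.86 log2), Vasp (0.69), Pxn (0.58) and Zyx (0.56). Of 17 genes for matrix proteases, sheddases and their inhibitors, Plaur, the urokinase receptor, was called higher in 4NQO (0.55 log2, limma adjusted p = 0.0199). Timp2, an inhibitor of matrix proteases, was called higher in IL-1Ra than in 4NQO (1.23 log2, limma adjusted p = 0.0386). None of the other genes in these 3 lists was called between IL-1Ra and 4NQO. In that comparison limma took 2 of 18 integrins (11.1%) and 5 of 20 focal adhesion genes as lower at an unadjusted p of 0.05. The share of all probe sets taken as lower was 10.8%, near that of the integrins.

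Some markers of the epithelium also differed between the groups. Of all probe sets, limma called 9.41% higher and 5.44% lower in 4NQO against normal, and 1.59% higher in IL-1Ra against 4NQO. Of 12 basal keratinocyte markers, 3 were called higher in 4NQO against normal: Tp63 (1.40 log2), Cdh3 (1.18) and Jag2 (0.72), of which Tp63 was lost after cyclic loess. Their summed intensity was 18853 to 23618 over the IL-1Ra arrays, 16711 to 30432 over the 4NQO arrays and 10013 to 16196 over the normal arrays. Krt5 and Krt14 stand in this list and among the hemidesmosome partners. The 14 pan-epithelial markers ran otherwise, at 21861 to 25389 in IL-1Ra, 10043 to 22651 in 4NQO and 14496 to 20707 in normal tongue, with 2 of 14 called lower in 4NQO against normal, and 2 of 14 called higher in IL-1Ra against 4NQO. Suprabasal markers summed to 60136 to 62495 in IL-1Ra, 26405 to 51650 in 4NQO and 48367 to 54436 in normal tongue, with 3 of 13 called lower in 4NQO against normal (1 after quantile normalization or cyclic loess) and 2 of 13 higher in IL-1Ra against 4NQO (1 after quantile normalization). None of the markers in these 3 lists lay below the lower quartile on every array. On 4NQO array 3, where the anchoring genes were mostly highest, the basal mean was 9.81 log2, and on 4NQO arrays 1 and 2 it was 9.12 and 9.06.

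The mean of the pan-epithelial markers was also subtracted from each anchoring gene on each array. Its markers did not move alike, with Prss8 at -0.98 log2 and Cdh1 at 0.39 in 4NQO against normal, and whether it tracks the amount of epithelium was not tested. The mean itself was 9.23 ± 0.15 log2 in IL-1Ra, 8.43 ± 0.52 in 4NQO and 8.78 ± 0.24 in normal tongue (SD, n = 3 each). Subtracting it raises each gene's 4NQO difference from normal, since the mean itself was at -0.34 log2, and lowers each IL-1Ra difference from normal, since it was at 0.45 log2. The 4NQO minus normal difference was then 1.59 log2 in Itgb4, 1.83 in Col17a1, 1.80 in Lamb3, 1.28 in Lama3 and 0.97 in Itga6 (exact permutation p = 0.1 each, the smallest possible). It was 0.51 in Itga3 and 0.53 in Itgb1 (exact permutation p = 0.2 each). Between IL-1Ra and 4NQO the subtracted mean alone differed by 0.80 log2, which moves all 7 genes alike, so nothing is read from their differences on this scale. Relative to normal tongue, IL-1Ra tongue then differed by 0.32 log2 in Itgb4 (exact permutation p = 0.3), 0.40 in Col17a1 (exact permutation p = 0.1) and 0.47 in Lamb3 (exact permutation p = 0.2). The other 4 lay below 0, at -0.33 log2 in Itga6 and -0.52 in Itgb1 (exact permutation p = 0.1 each), -0.37 in Itga3 (exact permutation p = 0.2) and -0.04 in Lama3 (exact permutation p = 0.8).

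**Figure D5:**
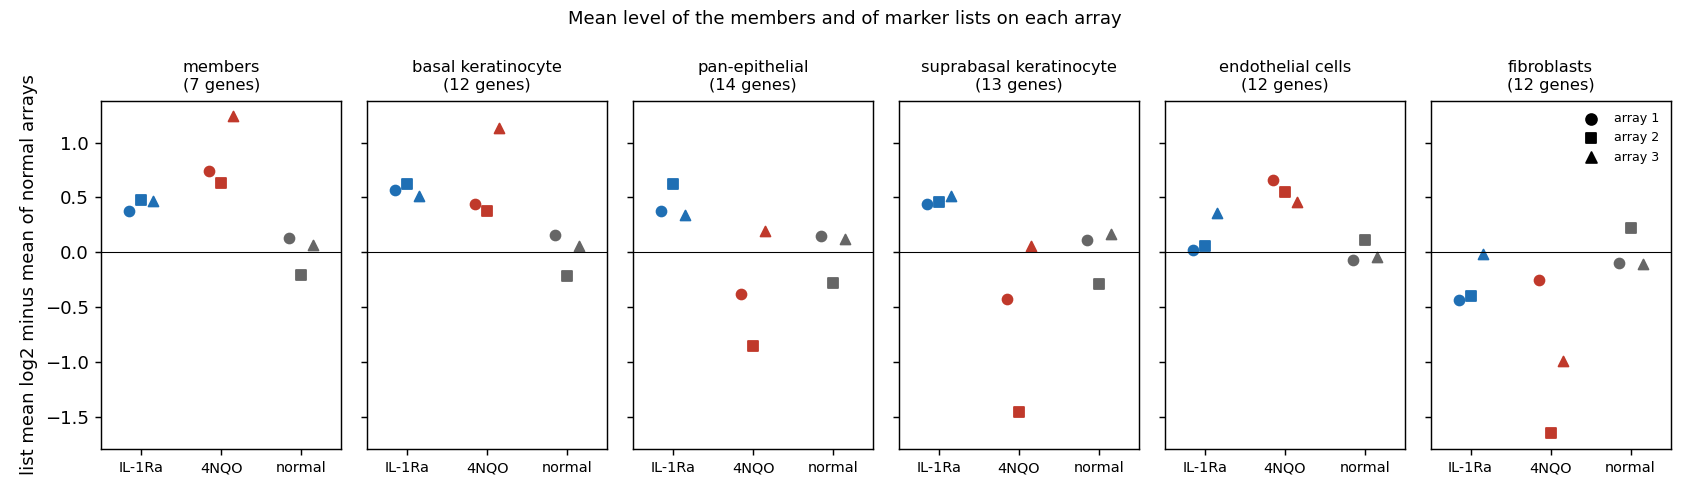
For the 7 anchoring genes (members) and 5 marker lists, the vertical axis gives the mean log2 level on each array minus the mean of the normal arrays. The anchoring genes and the basal markers lie above the normal arrays in IL-1Ra and 4NQO, while pan-epithelial, suprabasal and fibroblast markers are low on 4NQO array 2.

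Itga6 and Itgb1 are also made by endothelial cells, and Itga6 and Itgb4 by Schwann cells, so their markers were examined. For comparison, limma called 9.41% of all probe sets higher and 5.44% lower in 4NQO against normal. It called 0.731% lower in IL-1Ra against 4NQO. Endothelial markers summed to 2510 to 3163 in IL-1Ra, 3378 to 3942 in 4NQO and 2403 to 2642 in normal tongue, and 5 of 12 were called higher in 4NQO against normal, among them Flt1 (0.83 log2), Kdr (0.76), Pecam1 (0.81) and Plvap (0.95). After quantile normalization 2 of the 12 were called and after cyclic loess 1. Schwann cell markers summed to 1673 to 2694 in IL-1Ra, 1490 to 4070 in 4NQO and 2230 to 4418 in normal tongue. Limma called 1 of 8, Egr2, higher in 4NQO, though not after quantile normalization or cyclic loess, and 1 of 8 is near the share of all probe sets. Skeletal muscle markers summed to 61987 to 68535 in IL-1Ra, 66851 to 81994 in 4NQO and 71134 to 78637 in normal tongue, and 3 of 13 were called lower in IL-1Ra against 4NQO (0 after quantile normalization and 1 after cyclic loess). Fibroblast markers, by contrast, had 8 of 12 called lower in 4NQO, with sums of 16380 to 20831 in IL-1Ra, 6523 to 17557 in 4NQO and 23049 to 27028 in normal tongue. No marker of these lists lay below the lower quartile on every array. RNA quality was read from the control probe sets of beta-actin, whose 3′ minus 5′ signal was 1.13 ± 0.15 log2 in IL-1Ra, 1.20 ± 0.11 in 4NQO and 0.80 ± 0.06 in normal tongue (SD, n = 3 each). For hexokinase it ran from 1.80 to 2.20 log2 in IL-1Ra, 1.29 to 1.78 in 4NQO and 1.47 to 1.53 in normal tongue. For GAPDH it was 0.27 ± 0.01 log2 in IL-1Ra, 0.35 ± 0.07 in 4NQO and 0.27 ± 0.03 in normal tongue (SD, n = 3 each). The part of these cells and of RNA quality in the differences of the anchoring genes was not tested.

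Among 9808 genes of at least median brightness, those most like Itgb4 over the 9 arrays by Pearson's r were Utp4 and Snd1 (r = 0.99 each) and Acy1, Med15 and Tcp1 (r = 0.98 each). For the standardised mean of the 7 anchoring genes they were Uba2 and Taf2 (r = 0.99 each), Cuedc2 (r = 0.98), and Nucks1 and Lima1 (r = 0.97 each). These values describe 9 arrays that share the group differences and 4NQO array 3. Lima1, which encodes an actin-binding protein of epithelial cells, averaged 8.53 log2 in IL-1Ra, 8.92 in 4NQO and 8.06 in normal tongue.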

How the data were processed

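Biotin-labelled RNA of rat tongue was hybridised to 1 Affymetrix rat expression array per sample. In their processing notes the submitters list Expression Console of Affymetrix and RMA, without versions. RMA subtracts background, scales arrays to a common distribution and joins the probes of each probe set into 1 value. The authors deposited 1 linear intensity per probe set and array, and log2 of it was tested here. RMA can hide a change that most genes share. As deposited, the arrays still differed, with an upper quartile of 7.16 to 7.26 log2 in the IL-1Ra group, 7.21 to 7.28 in the 4NQO group and 7.04 to 7.08 in the normal group.

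Of 31099 probe sets, 57 controls were left out and 31042 tested without a filter. The annotation gave 20826 a single symbol, 436 several and 9780 none. The brightest probe set stood for a gene. Groups of 3 arrays came from the treatment labels, which do not say that each sample was a separate animal, so p-values measure the spread between these samples. A 3-group model was fitted with limma 3.58.1 in R 4.3.3 (eBayes, 6 residual and 4.01 prior degrees of freedom), two-sided, with Benjamini-Hochberg adjustment over all probe sets in each of 3 comparisons, at an adjusted p of 0.05. Shifts of single values were tested by exact two-sided permutation over arrays. The array number limits the precision. The procedure was tested on simulated data.

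The 7 genes, the lists and the rule for named genes were chosen with earlier results of these data known. The rule named every probe set of the 7 genes, up to 4 genes per list with the lowest adjusted p, and the 5 genes most like them. Plec, Lama5, Col18a1, Lima1 and the laminin chains beyond that were named after their values were seen, because of what they encode. Promoters came from the RefSeq table of GRCr8, matched by symbol. Other settings tried were quantile, cyclic loess and median scaling, a filter on the dimmest 40%, an offset of 16, an intensity trend with robust prior, array weights, 6 arrays alone, the methods' t-test (Student, equal variance), the mean or other probe sets of a gene, and leaving out each array. Student's t-test stands in the general statistics of the methods. For arrays the methods state a 2-fold or 1.5-fold change with a detection P value, and no test between groups. Tables and figures used pandas 2.3.3 and matplotlib 3.10.9 in Python 3.11.15.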

Additional observations from a re-analysis of the deposited data

How the results depend on the processing

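The 5 anchoring genes called in 4NQO against normal became 3 with quantile normalization, cyclic loess, the 6 arrays alone and the methods' t-test at a 2-fold change, 4 with an offset of 16, the 1.5-fold t-test or the mean of probe sets, and 0 with the t-test after Benjamini-Hochberg, which called 1 probe set on the whole array. With 1 array left out they were 2 to 5. The sign for Itga6 was reversed in its dimmest probe set, 1371185_at (-0.32 log2). That probe set lay near the lower quartile of all probe sets and was not called (limma adjusted p = 0.174). The count for IL-1Ra against 4NQO was 0 in every setting tried. For IL-1Ra against normal, 0 became 1 with median centring, the filter on dim probe sets, the offset of 16 or the trend with robust prior, and 2 with array weights, the 6 arrays alone or the 1.5-fold t-test, and 0 to 2 with 1 array left out. The cause of these shifts was not tested.

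Over all probe sets, 4610 calls for 4NQO against normal became 2821 (quantile), 2480 (loess), 1 (t-test after adjustment), 452 (2-fold t-test) and 2249 (1.5-fold t-test), and 851 to 4417 with 1 array left out. For IL-1Ra against 4NQO, 722 became 195 (6 arrays), 0 (t-test after adjustment) and 357 (2-fold t-test), and 184 to 2353 with 1 array left out. For IL-1Ra against normal, 581 became 203 (quantile), 97 (loess), 1157 (offset of 16), 3556 (array weights), 2714 (6 arrays), 109 (t-test after adjustment), 195 (2-fold t-test) and 1391 (1.5-fold t-test), and 0 to 2084 with 1 array left out. The share of calls that were higher was 63.4% for 4NQO against normal and became 51.9% (quantile) and 47.7% (loess). It was 68.6% for IL-1Ra against 4NQO (76.1% and 79.9%) and 71.1% for IL-1Ra against normal (46.3% and 35.1%). As deposited, and after quantile normalization or cyclic loess, the median difference of all probe sets lay within 0.025 log2 of 0. No paired analysis was possible because the labels give no replicate number shared between groups.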
